A study of Mus musculus with 12 samples.

Results

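Lymphoid priming is the low-level activity of genes of the B and T cell lineages in multipotent blood progenitors, before these cells commit to a lineage. The group described here holds 9 mouse genes that are used as marks of this state, taken as listed by symbol (Flt3, Il7r, Ccr9, Notch1, Rag1, Rag2, Dntt, Ikzf1 and Satb1), of 20284 genes with a named probe on the array. All 9 were measured, and all 9 were among the 13709 genes tested. For each gene the brightest probe was used, and its level is the log2 processed signal relative to the 75th percentile of all gene spots on that array, so that a level of 0 is the 75th percentile and a difference of 1 is 2-fold.

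The series measured total RNA of C57BL/6 bone marrow cells on 12 single-colour arrays that cover 2 sorted populations under 6 conditions, 1 array apiece. LSK cells carry Sca-1 and c-Kit and lack markers of mature lineages, and they include the stem cells and multipotent progenitors, whereas granulocyte-macrophage progenitors (GMPs) are committed to the myeloid lineages. The conditions were RAEB (Tet2KD/KD Ezh2-/- cells from mice with refractory anaemia with excess blasts), MDS/MPN (Tet2KD/KD Ezh2-/- cells from mice with a combined myelodysplastic and myeloproliferative neoplasm), double mutant (Tet2KD/KD Ezh2-/-, no disease named), Ezh2-null (Ezh2-/-), Tet2 knockdown (Tet2KD/KD, a hypomorphic allele) and wild-type. All cells came from recipients whose marrow had been rebuilt from transplanted fetal liver, so each array is a transplant model and not the marrow of a mutant born with the genotype. How Ezh2 was deleted, the age of the mice, how many mice gave each RNA and how donor cells were told from remaining host cells are not given in the sources used here. Below, "Ezh2-deficient" means the Ezh2-null and double mutant arrays without disease, "Ezh2 wild-type" means the wild-type and Tet2 knockdown arrays, and "diseased" means RAEB and MDS/MPN. Since no condition was repeated, no p-value measures a spread between replicates. In the diseased comparisons p-values measure the spread between arrays of different conditions treated as alike. In the Ezh2 and Tet2 comparisons they measure how far arrays depart from the fitted effects of genotype and cell type. For Ezh2 loss in LSK cells, and for its difference from GMPs, the fitted Ezh2 effect could differ by cell type. In the fit of the effect shared by both cell types it could not. In the Tet2 fit only the Tet2 effect could differ by cell type. For GMPs against LSK cells the p-values measure how the difference varies between conditions.

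Each of the 12 arrays had 59305 gene spots, of which 45.6% to 52.3% were well above background and none was saturated. The 8 arrays without disease lay on slide 1, the diseased LSK arrays on slide 2 and the diseased GMP arrays on slide 3, so that disease and slide cannot be told apart. Tet2 was lower on every knockdown array (-1.61 to -0.79 in LSK cells and -3.09 to -0.64 in GMPs) than on the arrays with normal Tet2 (0.12 and 0.44 in LSK cells, 1.51 and 1.57 in GMPs). The Ezh2 probe read 2.50 to 3.40 on all 12 arrays and did not separate the genotypes. Where that probe lies relative to the deletion was not examined, so it does not check the Ezh2 labels. Of the 10 stem cell and LSK marker genes, 6 to 8 were well above background on the GMP arrays and all 10 on each of the 6 LSK arrays. All 8 GMP marker genes were well above background on all 12 arrays, with a log2 summed level of 12.0 to 12.7 in GMPs, 10.4 in MDS/MPN LSK cells, 9.93 in RAEB LSK cells and 8.18 to 8.89 on the LSK arrays without disease. In such bulk samples fewer cells of a type and less RNA per cell cannot be told apart.

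The 9 genes act at different steps of early lymphoid development. Flt3 and Il7r are receptors for the cytokines FLT3 ligand and interleukin-7 that sustain lymphoid progenitors, Ccr9 is a chemokine receptor that guides progenitors to the thymus, and Notch1 is the receptor whose signal directs them to the T lineage. Rag1 and Rag2 together form the enzyme that cuts antigen receptor genes for recombination, and Dntt encodes the terminal transferase that adds bases at the joints. Ikzf1 (Ikaros) and Satb1 are nuclear proteins that regulate lymphoid genes in progenitors. Ezh2 is the catalytic subunit of Polycomb repressive complex 2, which marks histone H3 at silenced genes and is often found at promoters rich in CG dinucleotides, and Tet2 oxidises methylated cytosine in DNA.

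The 250 bases before the annotated start are shown, 5′ to 3′ on the gene's strand, for the 4 members with the smallest adjusted p for Ezh2 loss in LSK cells and for Notch1, the member with the smallest difference. The sequences are RefSeq promoters of build GRCm38.p6, and capitals mark CG dinucleotides.
Il7r promoter (chr15:9529877-9530126, minus strand): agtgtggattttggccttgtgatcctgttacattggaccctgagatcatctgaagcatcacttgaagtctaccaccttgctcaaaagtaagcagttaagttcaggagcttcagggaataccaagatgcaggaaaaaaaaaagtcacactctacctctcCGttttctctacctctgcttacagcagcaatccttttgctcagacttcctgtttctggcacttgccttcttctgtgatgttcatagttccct
Ccr9 promoter (chr9:123766961-123767210, plus strand): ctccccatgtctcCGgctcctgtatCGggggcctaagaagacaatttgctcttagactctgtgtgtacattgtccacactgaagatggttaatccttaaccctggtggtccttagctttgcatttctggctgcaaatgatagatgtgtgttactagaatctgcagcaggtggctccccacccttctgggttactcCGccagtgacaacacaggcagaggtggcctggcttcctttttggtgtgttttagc
Rag1 promoter (chr2:101649533-101649782, minus strand): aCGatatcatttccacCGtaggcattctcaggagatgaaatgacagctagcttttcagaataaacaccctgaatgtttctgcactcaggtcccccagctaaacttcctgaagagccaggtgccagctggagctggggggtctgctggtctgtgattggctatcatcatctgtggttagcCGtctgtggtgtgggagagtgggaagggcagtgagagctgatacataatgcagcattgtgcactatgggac
Dntt promoter (chr19:41029025-41029274, plus strand): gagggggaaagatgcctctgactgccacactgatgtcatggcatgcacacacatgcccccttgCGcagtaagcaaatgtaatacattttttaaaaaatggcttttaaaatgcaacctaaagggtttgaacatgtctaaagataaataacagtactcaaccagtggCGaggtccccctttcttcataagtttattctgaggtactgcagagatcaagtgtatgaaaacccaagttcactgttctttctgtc
Notch1 promoter (chr2:26503823-26504072, minus strand): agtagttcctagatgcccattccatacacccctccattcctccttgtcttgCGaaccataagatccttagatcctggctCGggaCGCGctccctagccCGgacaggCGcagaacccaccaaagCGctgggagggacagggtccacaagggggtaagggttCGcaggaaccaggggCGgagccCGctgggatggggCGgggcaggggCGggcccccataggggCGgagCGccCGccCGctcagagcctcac
The windows held 1 CG for Il7r, 2 for Dntt and 3 each for Rag1 and Ccr9, against 16 for Notch1. The median over 32851 mouse promoters of the same length was 6. Among the other members, Rag2 had 3 and Flt3 had 13. Ikzf1 has 2 annotated starts, with 44 and 1, and Satb1 has 5, with 41, 12, 6, 5 and 3. The E-box letters CANNTG, searched on both strands, occurred 3 times each in the Il7r, Rag1 and Dntt windows, 2 times in that of Ccr9, once each in those of Rag2 and Flt3, in 2 of the 5 Satb1 windows, and in neither the Notch1 nor the Ikzf1 windows. They were present in 66.2% of all promoters, so a match is common. The Ikaros core letters TGGGAA, present in 21.6% of all promoters, occurred in the windows of Rag1 and of 1 Satb1 start. The ETS core AGGAAG, present in 29.5% of promoters, occurred in the windows of Il7r, Ccr9 and Rag1 and of 1 start each of Ikzf1 and Satb1. The RUNX core TGTGGT, present in 14% of promoters, occurred 2 times in the Rag1 window and in that of no other member.

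The central comparison set LSK cells lacking Ezh2 against LSK cells with normal Ezh2, before any disease. Of the 9 genes, 8 were higher on both Ezh2-deficient LSK arrays than on both Ezh2 wild-type LSK arrays, and Notch1 was the exception. The same order was found for 13% of all genes. The differences ran from 7.13-fold for Ccr9 to 1.40-fold for Ikzf1 among those 8 genes, with Rag1 given only as a lower bound. In limma's test, with Benjamini-Hochberg adjustment over all 13709 genes and a threshold of 0.05, Il7r alone passed, against 0.0948% of all genes called higher and 0.16% called in either direction. At an unadjusted p below 0.05, 8 of the 9 members and 917 of all 13709 genes were found. The median difference was 1.23 over the 9 members and -0.01 over all genes on the log2 scale. A mean difference of at least 2-fold upward was seen for 6 of the 9 members and for 2.06% of all genes. The order, the members at an unadjusted p below 0.05, the 2-fold count and the median all include Rag1. Rag1 was well above background on 3 arrays, all of Ezh2-/- LSK cells. It entered the test only through the side where it was high, so its place in these counts was largely fixed beforehand.

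**Figure D1:**
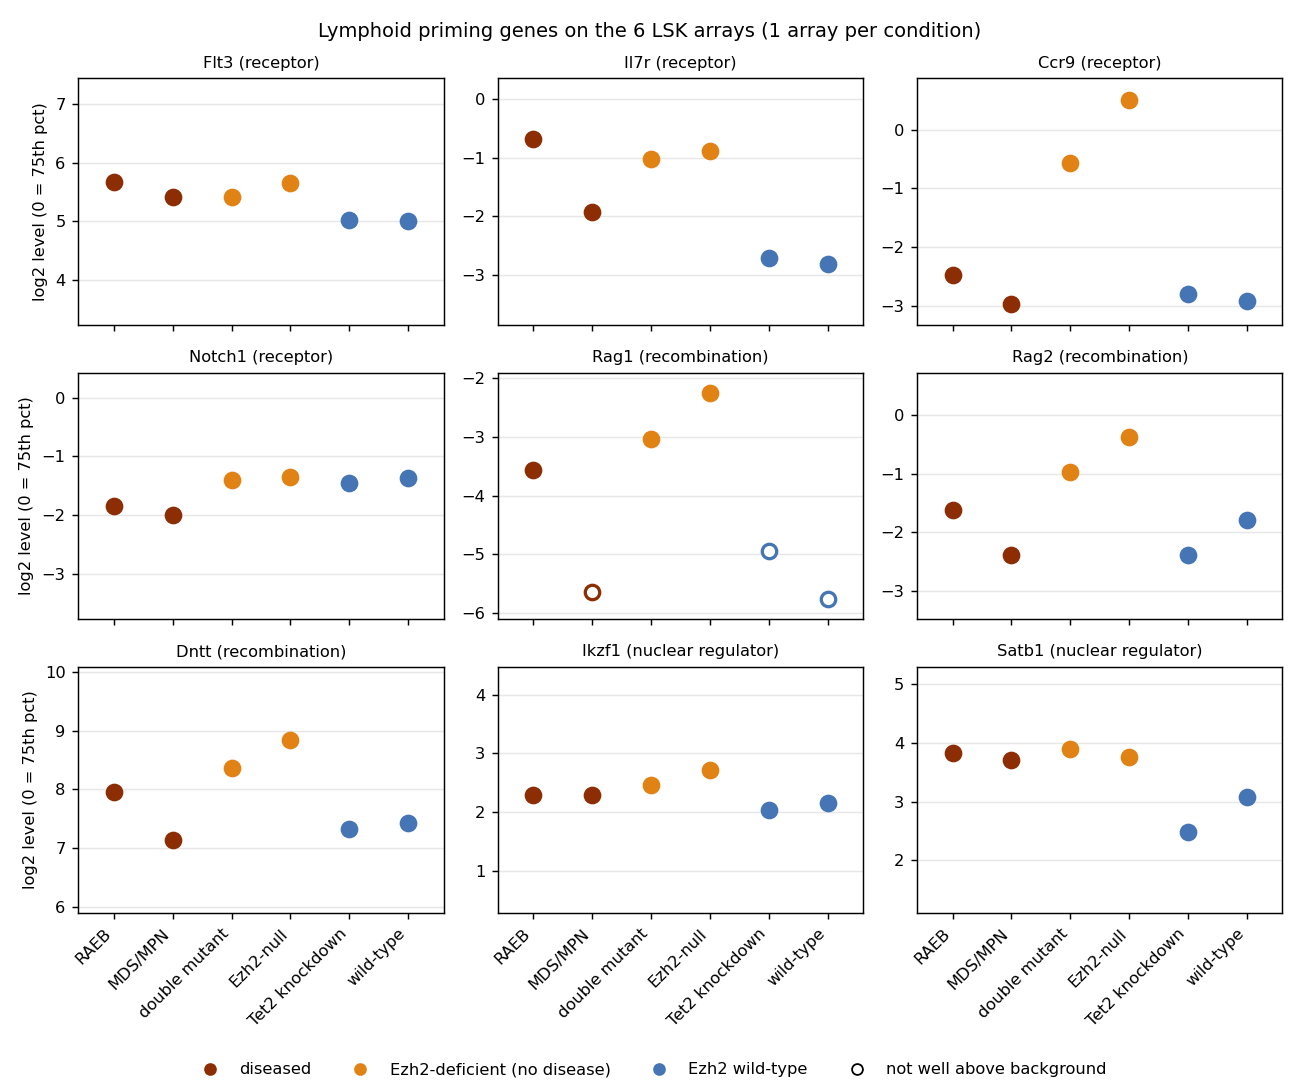
Log2 level of each lymphoid priming gene on the 6 LSK arrays, relative to the 75th percentile of the array. Each point is 1 array, colours give the class of condition, open points were not well above background, and each panel spans the same number of log2 units. The orange Ezh2-deficient points lie above the blue Ezh2 wild-type points for every gene except Notch1, and the diseased points lie below the orange ones for Ccr9, Notch1, Rag1, Rag2, Dntt and Ikzf1.

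The receptors differed widely in the size of the difference. Il7r had levels of -0.88 on the Ezh2-null and -1.02 on the double mutant array, against -2.82 on the wild-type and -2.71 on the Tet2 knockdown array. Each pair was tight and the pairs did not overlap. Il7r was 3.51-fold higher in Ezh2-deficient LSK cells (log2 difference 1.81, SE 0.157, adjusted p = 0.0253 by limma). This fit shares its estimate of spread with the GMP arrays without disease, where Il7r was at background throughout (-6.38 to -6.24). The SE and the adjusted p of Il7r therefore rest partly on background signals. Leaving out any of the 8 arrays kept a difference of 1.73 to 1.90 and ended the call (adjusted p 0.0818 to 0.152). Ccr9 read 0.51 and -0.56 on the Ezh2-null and double mutant arrays, against -2.92 on the wild-type and -2.79 on the Tet2 knockdown array. This was the largest fitted difference among the 9 genes (2.83, SE 0.31), and it lay just outside the threshold (limma adjusted p = 0.0578). Ccr9 was also at background on those GMP arrays, so the same limit applies to this test. Its call changed with the settings, with an adjusted p below 0.05 under 5 of 19 alternatives. With the normexp background correction the differences of the dim genes shrank to 1.52 for Ccr9 (limma adjusted p = 0.0319), 1.04 for Il7r (0.0192) and 0.52 for Rag1 (0.417), and Rag2, Dntt and Satb1 passed as well (0.0346, 0.0163 and 0.0459).

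Flt3 was abundant on every LSK array. Its levels were 5.65 and 5.42 on the Ezh2-null and double mutant arrays, against 5.00 on the wild-type and 5.02 on the Tet2 knockdown array. The groups did not overlap, and the difference of 0.53 (SE 0.18) did not pass limma's test (adjusted p = 0.575). The second Flt3 probe gave 2.44 and 2.67 on the same Ezh2-deficient arrays, against 2.19 and 1.83 on the wild-type and Tet2 knockdown arrays, which is the same order. Notch1 read -1.35 and -1.40 on the Ezh2-deficient arrays, against -1.37 on the wild-type and -1.45 on the Tet2 knockdown array. The Notch1 values were interleaved, with a difference of 0.04 (SE 0.18, limma adjusted p = 1.00).

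All 3 recombination genes read higher on both Ezh2-deficient LSK arrays than on both Ezh2 wild-type ones, and none passed the test. Rag1 was not well above background on either Ezh2 wild-type LSK array and was measured on both Ezh2-deficient arrays, at -2.25 (Ezh2-null) and -3.04 (double mutant). It was therefore at least 2.70-fold higher in Ezh2-deficient LSK cells (limma adjusted p = 0.0827), where the bound sets the mean level against the lowest signal counted as well above background on each dim array. Its second probe was at background on all 12 arrays. The brighter Rag1 probe was at background on the GMP arrays, which share in the estimate of spread of that test. Rag2 had levels of -0.37 and -0.96 on the Ezh2-null and double mutant arrays, against -1.79 on the wild-type and -2.38 on the Tet2 knockdown array. The Rag2 groups did not overlap (1.42, SE 0.43, limma adjusted p = 0.512). The second Rag2 probe was at background on all 12 arrays, and the mean over probes gave a difference of 0.76. Dntt, whose level was high on every LSK array, read 8.83 and 8.36 without Ezh2, against 7.43 on the wild-type and 7.32 on the Tet2 knockdown array. That is a 2.34-fold difference (1.23, SE 0.18, limma adjusted p = 0.0984).

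Neither nuclear regulator passed the test. Satb1 read 3.76 on the Ezh2-null and 3.90 on the double mutant array, against 3.07 on the wild-type and 2.49 on the Tet2 knockdown array. Its difference was 1.05 (SE 0.23, limma adjusted p = 0.279). Ikzf1 had 2.71 and 2.45 on the Ezh2-deficient arrays, against 2.15 on the wild-type and 2.04 on the Tet2 knockdown array. The Ikzf1 difference was 0.49 (SE 0.16, limma adjusted p = 0.548), and its second probe kept the order, with -0.81 and -0.73 without Ezh2, against -1.11 and -1.37 on the wild-type and Tet2 knockdown arrays.

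Other cell types could hold these genes too, and their markers were read on the same arrays. The B-lineage list of 12 genes had a log2 summed level of 4.06 and 4.12 on the Ezh2-deficient LSK arrays, against 3.90 and 3.98 on the Ezh2 wild-type ones, with 5 of 12 markers well above background on each Ezh2-deficient array, against 4 and 6 on the wild-type and Tet2 knockdown arrays. Cd79b, a subunit of the B cell receptor, made up most of that sum and read 3.56 on both Ezh2-deficient arrays, against 3.59 and 3.64 on the wild-type and Tet2 knockdown arrays. Single markers of the list went in both directions. Cd79a (-3.62) and Pou2af1 (-2.90) were well above background only on the Tet2 knockdown array among the LSK arrays without disease. Ly6d, Blnk and Vpreb3 were higher without Ezh2. Ly6d, a surface mark of lymphoid progenitors on the way to B cells, read 0.26 and 0.81 on the Ezh2-null and double mutant arrays, against -1.34 and -0.13 on the wild-type and Tet2 knockdown arrays. Blnk, an adaptor of B cell receptor signalling, read 1.25 and 1.30 on the Ezh2-deficient arrays, against 0.51 and 0.15 on the wild-type and Tet2 knockdown arrays. Vpreb3 read -2.47 and -2.53 on the Ezh2-deficient arrays and was not well above background on either Ezh2 wild-type array. The B cell transcription factor genes Pax5 and Ebf1 were not well above background on any of these 4 arrays. The list of 12 T and NK cell genes read 6.57 and 6.36 on the Ezh2-deficient arrays, against 6.37 and 6.80 on the Ezh2 wild-type arrays. Nkg7 was the largest part of that sum. Nkg7 and Cd3e were lower on both Ezh2-deficient arrays, whereas Lck and Cd5 were higher. Lck read 5.05 and 4.33, against 3.84 and 4.25 on the wild-type and Tet2 knockdown arrays. Cd5 read -0.14 and -0.31, against -1.12 and -0.89. Plasmacytoid dendritic cell markers read 8.42 and 8.67 on the Ezh2-deficient arrays, against 8.78 and 8.53 on the Ezh2 wild-type arrays. Siglech was the largest part of that sum. Within the list Irf8 and Cox6a2 were higher on both Ezh2-deficient arrays, and Pacsin1 was lower on both. Erythroid markers read 2.09 and 2.43 on the Ezh2-deficient arrays, against 2.53 and 2.00 on the Ezh2 wild-type arrays. The 5 megakaryocyte markers were lower, at 4.11 and 3.49, against 4.93 and 4.51 on the wild-type and Tet2 knockdown arrays. Neutrophil markers stood apart on 1 array, with a log2 summed level of 6.52 in wild-type LSK cells, against 3.43 to 4.36 on the other 3 LSK arrays without disease. Without that wild-type array Il7r differed by 1.73 (limma adjusted p = 0.148) and Ccr9 by 2.57. The part of these markers in the levels of the 9 genes was not tested.

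The Ezh2 effect was then read in GMPs, from the matched 4 arrays. Il7r, Ccr9 and Rag1 were not well above background on any GMP array, so no change can be given for them. Both Ezh2-deficient GMP arrays lay above both Ezh2 wild-type GMP arrays for 4 of the 9 genes, against 20.4% of all genes, but 3 of the 4 were at background there and Dntt alone was measured. In a fit of the effect shared by LSK cells and GMPs, none of the 9 passed, against 0.19% of all genes in either direction. At an unadjusted p below 0.05, 4 members and 1204 of all 13709 genes were found, and 3 of the 4 members (Il7r, Ccr9 and Rag1) rest on GMP signals at background. Dntt had the smallest adjusted p of the 9 in that fit (0.95, SE 0.15, limma adjusted p = 0.11), with -1.92 and -1.97 on the Ezh2-null and double mutant GMP arrays, against -2.55 and -2.68 on the wild-type and Tet2 knockdown ones.

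Flt3 ran in opposite directions in the 2 cell types. In GMPs its level was -0.25 on the Ezh2-null and -0.01 on the double mutant array, against 1.54 on the wild-type and 1.59 on the Tet2 knockdown array. The second Flt3 probe had the same order in GMPs, with -1.65 and -1.12 without Ezh2, against -0.78 and -0.93 on the wild-type and Tet2 knockdown arrays. The Ezh2 effect on Flt3 was 0.53 in LSK cells and -1.70 in GMPs, a difference of 2.23 (SE 0.25) that did not pass limma's interaction test (adjusted p = 0.146, between 0.0101 and 0.979 over the alternatives). In that test 0 of 13709 genes passed (0%), while 801 genes, 6 of them members, had an unadjusted p below 0.05. Of those 6 members, Il7r, Ccr9 and Rag1 rest on GMP signals at background. Rag2 does so in part, since its double mutant GMP level (-5.35) was not well above background.

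**Figure D2:**
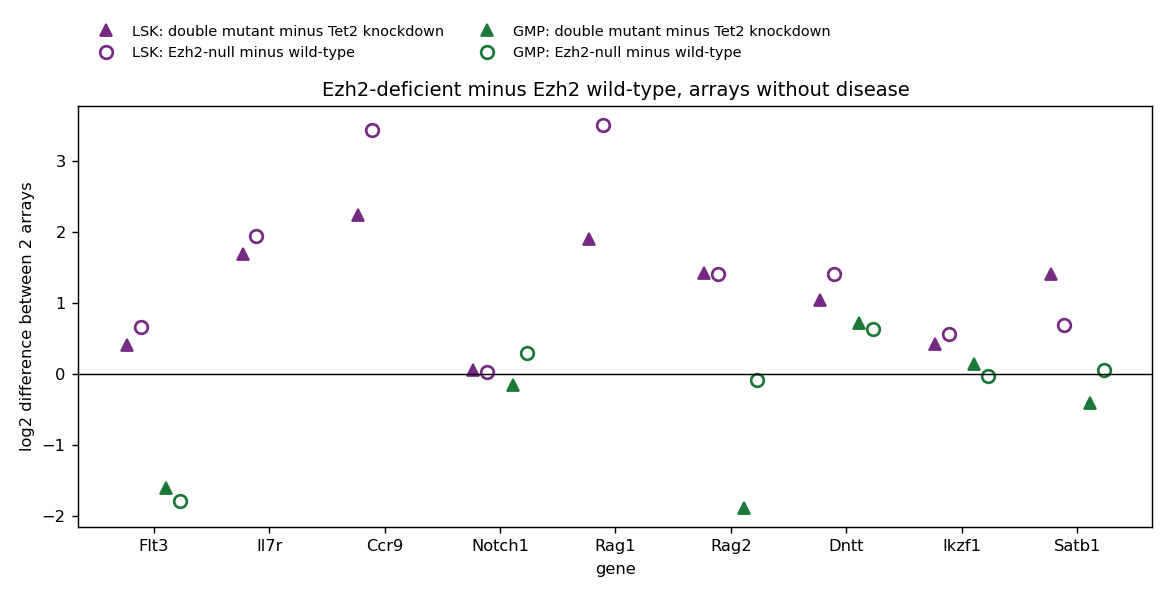
Log2 difference between an Ezh2-deficient and an Ezh2 wild-type array of the same Tet2 genotype, for each gene, with the double mutant minus Tet2 knockdown pair as triangles and the Ezh2-null minus wild-type pair as open circles. LSK pairs are purple and GMP pairs green. GMP points of Il7r, Ccr9 and Rag1 are left out because neither array was above background. Both LSK pairs lie above 0 for all 9 genes, while Flt3 lies above 0 in LSK cells and near -1.70 in GMPs. The LSK points of Rag1 rest on Ezh2 wild-type signals at background, as does the GMP triangle of Rag2 on the double mutant side.

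**Figure D3:**
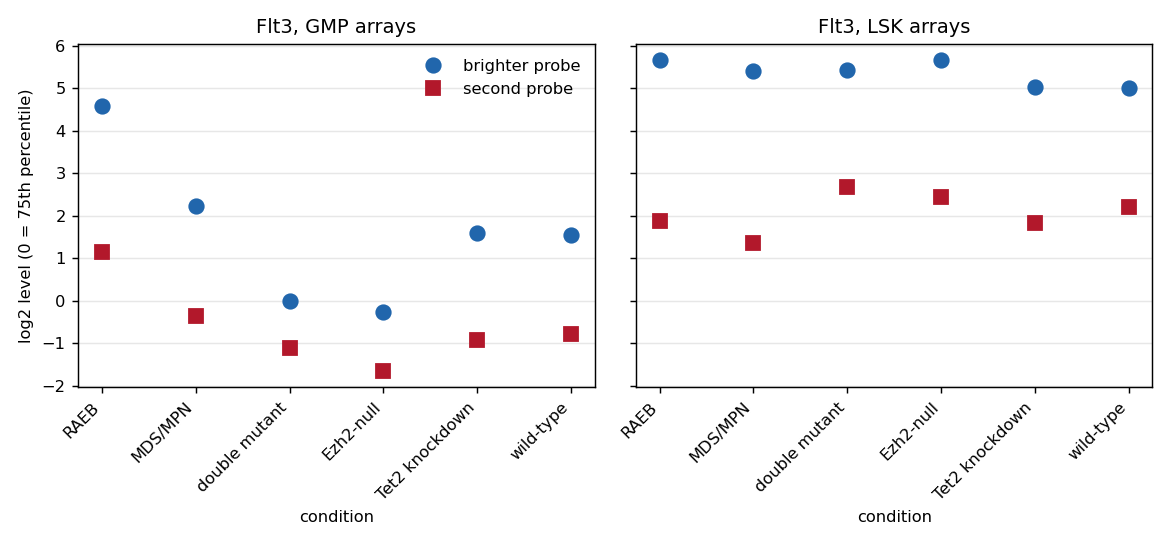
Log2 level of both Flt3 probes on the 6 GMP arrays (left) and the 6 LSK arrays (right). Circles are the brighter probe and squares the second probe, 1 array each. Both probes are lowest on the Ezh2-null and double mutant GMP arrays and highest among GMPs on the RAEB array, where the brighter probe reached 4.58.

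Among GMPs, Flt3 was highest on the diseased arrays, at 4.58 (RAEB) and 2.24 (MDS/MPN), against -0.01 on the double mutant array without disease. The second probe had 1.14 (RAEB) and -0.35 (MDS/MPN), against -1.12 on the double mutant array. These are single arrays on a different slide and carry no test. No other member was at least 2-fold higher on the RAEB than on the double mutant GMP array, a size that 9.29% of all genes reached.

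The diseased LSK arrays were set first against the Ezh2 wild-type LSK arrays. Both diseased arrays lay above both Ezh2 wild-type arrays for 4 of the 9 genes (Flt3, Il7r, Ikzf1 and Satb1), against 33.9% of all genes. The second probes disagreed for 2 of these genes, with Flt3 at 1.87 (RAEB) and 1.37 (MDS/MPN), against 2.19 and 1.83 on the wild-type and Tet2 knockdown arrays. The second Ikzf1 probe read -1.39 (RAEB) and -1.49 (MDS/MPN), against -1.11 and -1.37 on the wild-type and Tet2 knockdown arrays. In limma's fit Il7r alone passed, against 2.28% of all genes called higher and 4.81% called in either direction. Il7r read -0.68 on the RAEB and -1.93 on the MDS/MPN array, against -2.82 and -2.71 on the wild-type and Tet2 knockdown arrays. The difference was 1.46 (SE 0.33, adjusted p = 0.0436). It was 0.84 without the RAEB array (limma adjusted p = 0.102) and 2.08 without the MDS/MPN array (adjusted p = 0.00661). Its call was also lost without any single array of the 8 without disease (limma adjusted p 0.0693 to 0.135), with normexp (0.73, adjusted p = 0.0542), with a trend in the variance (0.0741) and from the LSK arrays alone (0.0924). Satb1, at 3.84 (RAEB) and 3.70 (MDS/MPN), differed by 0.99 (SE 0.27) and did not pass (limma adjusted p = 0.0748). Notch1 was the only member below both Ezh2 wild-type arrays on both diseased arrays, at -1.85 and -2.00, an order found for 23.8% of all genes, and its difference of -0.51 did not pass (limma adjusted p = 0.199). The second Notch1 probe did not keep this order. Among these arrays it was well above background on the RAEB array alone (-4.18), and the mean over probes gave a difference of 0.39.

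Against the Ezh2-deficient LSK arrays without disease, the same diseased arrays were lower for 6 of the 9 genes on both arrays (Ccr9, Notch1, Rag1, Rag2, Dntt and Ikzf1). That order was found for 26.4% of all genes. Rag1 is counted here too, although it passed the filter only through the Ezh2-deficient and RAEB LSK arrays. The median difference over the 9 members was -0.55, against 0.09 over all genes. This comparison shares the diseased arrays with the previous one, so the 2 are not independent. Ccr9 alone passed, against 1.01% of all genes called lower and 1.94% called in either direction. It read -2.48 on the RAEB and -2.97 on the MDS/MPN array, against 0.51 and -0.56 on the Ezh2-null and double mutant arrays, and so stood beside the wild-type and Tet2 knockdown levels of -2.92 and -2.79. The fall of 6.49-fold (log2 difference -2.70, SE 0.38, limma adjusted p = 0.0167) passed under 19 of 21 alternatives. It was not called without the Ezh2-null LSK array (-2.16, limma adjusted p = 0.076) or without the MDS/MPN LSK array (-2.45, adjusted p = 0.123). With normexp the difference was -1.82 (adjusted p = 0.00641), and Rag1 and Rag2 then passed too (-0.79 and -1.01).

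Rag1 was not well above background on the MDS/MPN array and read -3.56 on the RAEB array, against -2.25 and -3.04 on the Ezh2-deficient arrays. Rag1 was thus at least 3.92-fold lower in MDS/MPN LSK cells than in Ezh2-deficient LSK cells, a bound from 1 array with no test of its own. Over both diseased arrays the difference did not pass (limma adjusted p = 0.125). Rag2 had -1.62 on the RAEB and -2.38 on the MDS/MPN array, against -0.37 and -0.96 without disease (difference -1.34, limma adjusted p = 0.258). Dntt had 7.95 on the RAEB and 7.14 on the MDS/MPN array, against 8.83 and 8.36 without disease (difference -1.05, SE 0.33, limma adjusted p = 0.137). On the MDS/MPN array Dntt was thus below both Ezh2 wild-type arrays as well. Flt3 and Satb1 read close to the Ezh2-deficient arrays, with differences of 0.00 (SE 0.58) and -0.06 (SE 0.27), neither of which passed (limma adjusted p = 0.999 and 0.915). The second Flt3 probe differed from the first here, with 1.87 (RAEB) and 1.37 (MDS/MPN), against 2.44 and 2.67 on the Ezh2-null and double mutant arrays.

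All 9 genes were higher on the RAEB than on the MDS/MPN LSK array, as were 57.9% of all genes. The log2 difference was only 0.0036 for Ikzf1, 0.13 for Satb1 and 0.15 for Notch1, so that count includes near-ties between single arrays. A difference of at least 2-fold was reached by Il7r (1.24) and Rag1, and by 1.71% of all genes. Rag1 was at background on the MDS/MPN array and is given as at least 2.07-fold higher on the RAEB array. With 1 array a side these values carry no test. Markers of other lineages differed between the same 2 arrays. The B-lineage list had 10 of 12 genes well above background on the RAEB array, against 6 of 12 on the MDS/MPN array, and its log2 summed level was 5.37, against 4.11. Vpreb1, Vpreb3 and Igll1, parts of or partners of the pre-B cell receptor, read 3.14, 2.55 and 0.02 on the RAEB array, against -0.28, -3.14 and -5.91 on the MDS/MPN array, where Igll1 was not well above background. Ebf1 (-3.03) was above background on the RAEB array, and Pax5 was not. The neutrophil list read 3.94 on the RAEB and 8.43 on the MDS/MPN array. The log2 summed level of the GMP list was 9.93 on the RAEB and 10.4 on the MDS/MPN array. Whether these marker levels account for any of the differences in the 9 genes was not tested.

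**Figure D4:**
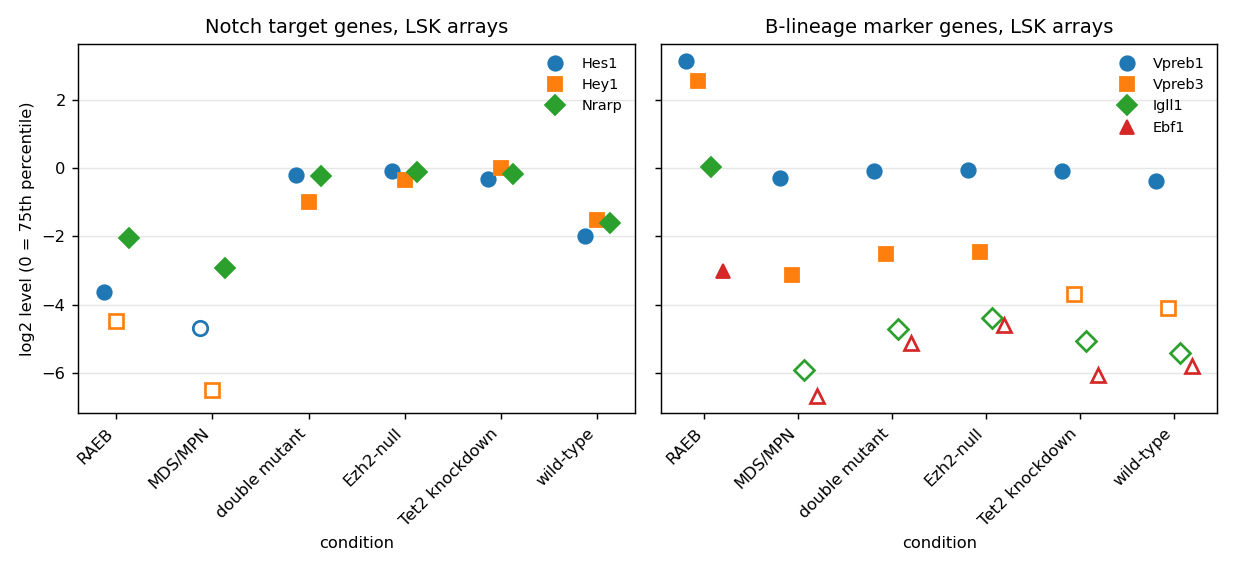
Log2 level of the Notch target genes Hes1, Hey1 and Nrarp (left) and of the B-lineage genes Vpreb1, Vpreb3, Igll1 and Ebf1 (right) on the 6 LSK arrays, 1 point per array, open where not well above background. The Notch targets are lower on both diseased arrays than on all 4 arrays without disease. The B-lineage genes are highest on the RAEB array.

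Genes that work with the members were read from 4 lists. For Ezh2 loss in LSK cells limma called 0 of 15 tested receptor partners and ligands, 0 of 20 Notch pathway genes, 0 of 13 recombination partners and 0 of 24 lymphoid regulators, with 3, 0, 1 and 1 of them at an unadjusted p below 0.05. The medians of the lists were -0.09, 0.01, 0.08 and 0.05, near that of all genes. Ccr7, a chemokine receptor of lymphoid cells, differed by 0.83 (limma adjusted p = 0.304) and Ets1, a transcription factor of lymphocytes, by 1.00 (adjusted p = 0.548). Crlf2, a subunit of the receptor for thymic stromal lymphopoietin, differed by -0.49 (adjusted p = 0.548).

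In the diseased LSK cells 1 of 20 Notch pathway genes and 1 of 24 lymphoid regulators passed in each comparison, and 0 of the other 2 lists did, against 4.81% of all genes called against the Ezh2 wild-type and 1.94% against the Ezh2-deficient arrays. Against the Ezh2-deficient arrays 13 of the 20 Notch pathway genes had a difference above 0, with a median of 0.11. Hes1, a repressor induced by Notch signals, read -3.64 on the RAEB array and was not well above background on the MDS/MPN array. Its levels were -0.07 and -0.20 on the Ezh2-null and double mutant arrays and -1.99 and -0.33 on the wild-type and Tet2 knockdown arrays. Hes1 was called lower in diseased LSK cells than on the Ezh2-deficient arrays (log2 difference -4.04, SE 0.49, limma adjusted p = 0.00943) and than on the Ezh2 wild-type ones (-3.01, adjusted p = 0.0152). With 1 of the 2 diseased arrays at background, the sizes rest partly on a background signal. Hey1, another Notch target, was at background on both diseased arrays. It was at least 14.6-fold lower in diseased than in Ezh2-deficient LSK cells, without passing (limma adjusted p = 0.0675). Nrarp, a feedback inhibitor of Notch signalling, differed by -2.31 (limma adjusted p = 0.0677). Spi1 (PU.1), a transcription factor of myeloid and B cells, rose by 1.06 against the Ezh2-deficient arrays (SE 0.22, limma adjusted p = 0.0489) and by 0.97 against the Ezh2 wild-type arrays (adjusted p = 0.0421). Dtx1 and Ptcra, 2 further Notch targets, were at background on all 6 LSK arrays.

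All 6 conditions were used to set GMPs against LSK cells. In GMPs 8 of the 9 genes were lower by limma's test, against 18.8% of all genes called lower and 44.6% called in either direction, and 7 were lower on every GMP array than on every LSK array, an order seen for 11% of all genes. The median of all genes was 0.16 in this comparison, and the members' median was -2.36. The same 8 genes passed on slide 1 alone, which holds 8 of the 12 arrays. Il7r, Ccr9 and Rag1 were well above background on no GMP array and entered the test only through LSK cells. Their direction was therefore largely fixed beforehand. All of them are among the 8 genes called, and Il7r and Ccr9 are among the 7 that did not overlap. Dntt averaged -2.16 ± 0.45 in GMPs and 7.84 ± 0.66 in LSK cells (SD, n = 6 each), a difference of -9.99 (SE 0.19, limma adjusted p = 4.88e-07). Flt3 averaged 1.61 ± 1.75 in GMPs and 5.36 ± 0.30 in LSK cells (SD, n = 6 each), and its GMP values were spread by the conditions described above. Satb1 averaged 1.26 ± 0.31 in GMPs and 3.46 ± 0.56 in LSK cells (SD, n = 6 each), 4.61-fold lower in GMPs. Il7r was at background on all 6 GMP arrays and at least 5.01-fold lower in GMPs, and Ccr9 was at least 4.38-fold lower (limma adjusted p = 2.87e-05 and 0.000244). With normexp the fitted differences were -8.67 for Dntt, -1.15 for Il7r, -0.74 for Rag2 and -0.73 for Ccr9, and Ccr9 was not called (limma adjusted p = 0.0663).

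Rag2 was called lower in GMPs (log2 difference -2.36, SE 0.42, limma adjusted p = 0.00295), but it was well above background on only 3 of 6 GMP arrays, so the size rests partly on signals at background and no fold is given. Rag1 was at background on all GMP arrays and on 3 of 6 LSK arrays, so no fold is given, and its call (limma adjusted p = 0.0195) was lost under 5 of 20 alternatives. Ikzf1 averaged 1.65 ± 0.28 in GMPs and 2.32 ± 0.24 in LSK cells (SD, n = 6 each), a difference of -0.67 (SE 0.15, limma adjusted p = 0.00783). Notch1 was the one member not called, with -1.20 ± 0.23 in GMPs and -1.57 ± 0.28 in LSK cells (SD, n = 6 each, limma adjusted p = 0.0965). Of the partner lists, 10 of 15 receptor partners and 10 of 20 Notch pathway genes were called lower in GMPs. So were 2 of 13 recombination partners and 14 of 24 lymphoid regulators. In the same order, 3, 4, 3 and 2 genes were called higher. Of all 13709 genes, 2584 were called lower (18.8%) and 3524 higher. Gata3, a transcription factor of early T cells, was at least 17.9-fold lower and Ccr7 at least 13.7-fold lower.

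Tet2 knockdown in LSK cells called none of the 9 genes. Their differences ran from -0.60 (Rag2) to 0.02 (Rag1), and 0 had an unadjusted p below 0.05. This fit held the Ezh2 effect the same in LSK cells and GMPs, so any difference of that effect widened the spread. The SE was 0.67 for Flt3 and 0.52 for Il7r, against 0.18 and 0.16 in the fit of Ezh2 loss in LSK cells. For Notch1 it was 0.18 in both. The lack of calls therefore cannot show that Tet2 knockdown left these genes unchanged. By limma 1 of all 13709 genes passed (0.00729%), Fndc8, named after its value was seen. At an unadjusted p below 0.05 there were 407 genes.

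The members were also compared with each other and with all other genes over the 6 LSK arrays, as a description without a test, since the arrays share slides and conditions. Rag1 was left out, since it was not well above background on all 6, which leaves 8 members. Of these, Rag2 and Dntt varied most alike (Pearson r = 0.977, n = 6 arrays). Flt3 and Il7r followed at 0.955, and Ccr9 and Dntt at 0.951. Among 12061 genes well above background on all 6 LSK arrays, those most like Il7r were Ppp1r14bl (r = 0.993), Plekha7 and Btrc. Those most like Ccr9 were Znrf3 (0.987), Rnf24 and Cdk19, and Cdk19 was also the most like Dntt (0.981). The gene most like Ikzf1 was Ccr7 (0.992). For Satb1 it was Pde3b (0.993), for Flt3 Slc29a4 (0.994), for Rag2 Cobll1 (0.985) and for Notch1 AW549877 (0.993). Each of these genes was picked as the most alike of 12061 over only 6 arrays. Such high values can arise from the choice alone, so they do not show shared regulation.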

How the data were processed

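RNA was turned into Cy3-labelled cRNA after spike-ins had been added, and each labelled sample was put on its own single-colour array, per the labels' protocols. Scans were quantified in Feature Extraction 10.7.1.1, per the file headers, and the processed signal, and the median spot and background signals, are deposited as intensity on a linear scale. The authors' value table holds the same intensity at all 62976 spots of each array. Flags for control type, outlying spots and signal well above background come from the same files.

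Control spots and 100 to 156 outlier-flagged gene spots per array were left out. The log2 of the processed signal minus that of the array's 75th percentile was averaged over spots of a probe. RefSeq accessions were named through a RefSeq gene table of GRCm38.p6: of 55681 probes, 26762 had 1 symbol and 28919 none. The file headers name build mm9, and promoter coordinates are those of GRCm38.p6 alone. The brightest probe stood for a gene, and 13709 genes well above background on at least 2 of 12 arrays went into moderated linear models (limma 3.58.1, run under R 4.3.3) with Benjamini-Hochberg adjustment. Ezh2 and Tet2 effects were fitted on the 8 arrays without disease, the diseased comparisons on 12 arrays in 6 groups of 2, and GMP against LSK with condition as a block. The fits were tested on simulated data. Alternatives were quantile normalization, normexp background correction with an offset of 50, other filters, the mean over probes, moderation with a trend, other designs, leaving out each array and, added after seeing the data, a common background floor.

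The members, the partner and marker lists and the promoter motifs were chosen with earlier results of these data known. Text names the 9 members, up to 3 genes of each partner list with the smallest p in a comparison, and up to 3 genes most like each member; other named genes come from the marker lists or were named after their values were seen, as Dtx1 and Ptcra were from the Notch list. The number of arrays limits the precision, and no replicate of any condition was present.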

Additional observations from a re-analysis of the deposited data

How the results depend on the processing

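No paired analysis was possible because each group holds 1 array and the labels give no replicate numbers shared by groups, but GMP against LSK was fitted with condition as a block in every setting. Slide could not be fitted as a block in the diseased comparisons, since disease and slide cannot be told apart, and Rag1 had no value where genes had to be well above background on 6 arrays. The authors' value table gave the counts of the scanner files in all 7 comparisons. Of the members' values under the alternatives, 1097 kept their direction and side of the threshold, 34 lost the call, 23 gained it and 45 reversed, none of them a called value. The causes were not tested unless given.

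Counts of called genes moved as follows. Ezh2 loss in LSK cells called 22 genes, 2 with quantile normalization, 67 with normexp, 2 without a filter, 13 with the filter at 6 arrays, 42 with a trend, 224 from the LSK arrays alone, 1 with the common floor and 0 to 13 without 1 array. For both cell types together 26 became 17, 74, 12 and 78 with quantile normalization, normexp, no filter and a trend, 7 with a Tet2 by Ezh2 term, 4 with the floor and 0 to 10 without 1 array. The difference of the Ezh2 effects called 0 genes, 6 with normexp, 4 with a trend, 1 in the fit of 12 arrays and 0 to 1 without 1 array. Diseased LSK against Ezh2 wild-type LSK called 660 (313 higher), 766 with quantile normalization (469 higher), 2850 with normexp (1009 higher), 4988 without a filter and 96 to 1312 without 1 array. Against Ezh2-deficient LSK cells 266 were called (128 higher), 306 with quantile normalization (180 higher), 1147 with normexp (432 higher), 3958 without a filter, 154 from the LSK arrays alone and 28 to 581 without 1 array. GMP against LSK kept its count within 1.5 times, with 3524 higher and 2584 lower against 2677 and 3104 with quantile normalization, where the median of all genes was 0.01. Tet2 knockdown called 1 gene, 0 with normexp, no filter, the filter at 6 arrays, a trend, a Tet2 by Ezh2 term or the floor, and 0 to 4 without 1 array.

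Il7r lost its Ezh2 call with quantile normalization (limma adjusted p = 0.0556), no filter (0.0746), a trend (0.165), a Tet2 by Ezh2 term (0.0633), the 12-array fit (0.110) and the floor (0.0651). Values that reversed were these. With normexp, Notch1 read -0.0288 for Ezh2 loss in LSK cells, and against Ezh2 wild-type LSK cells diseased Ccr9 read -0.30, Rag1 -0.27 and Rag2 -0.12. With the mean over probes the same comparison gave Notch1 0.39, Rag2 -0.27 and Ikzf1 -0.00238, and without 1 array Ccr9 -0.11 to 0.38, Rag1 -0.30 to 1.78, Rag2 -0.30 to 0.46 and Dntt -0.23 to 0.58. Against Ezh2-deficient LSK cells diseased Flt3 read -0.14 with quantile normalization, -0.47 with the mean over probes and -0.13 to 0.13 without 1 array, Il7r -0.97 to 0.27 and Satb1 -0.14 to 0.00771. For Ezh2 loss in both cell types Notch1 ran between -0.0151 and 0.11 and Rag2 between -0.15 and 0.81 without 1 array, and for the difference of the effects Notch1 ran between -0.20 and 0.14. For Tet2 knockdown Il7r read 0.0273 with quantile normalization and 0.00437 with normexp, Notch1 0.031 and Rag1 -0.0299 with normexp, and Rag1 -0.20 with the mean over probes and -0.39 with the floor. Without 1 array the Tet2 values were -0.93 to 0.72 for Flt3, -0.66 to 0.63 for Il7r, -1.42 to 0.48 for Ccr9, -1.37 to 1.41 for Rag1, -1.40 to 0.21 for Rag2, -0.59 to 0.0152 for Dntt, -0.38 to 0.00577 for Ikzf1 and -0.87 to 0.43 for Satb1.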
